A study of Mus musculus with 8 samples.

Results

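The cornified envelope genes outside the Sprr2 cluster are 34 genes listed by symbol for their known function, among 49315 genes counted in whole mouse esophagus. They comprise scaffold precursors (Ivl, Lor, Sprr1a, Sprr1b, Sprr3, Sprr4, Lce3a to Lce3f, Crct1, Cnfn), large S100-fused proteins and a related protein (Flg, Flg2, Hrnr, Rptn, Crnn, Tchh, Kprp), transglutaminases (Tgm1, Tgm2, Tgm3, Tgm5), plakins and sciellin (Evpl, Ppl, Scel) and secreted or desquamation-linked proteins (Krtdap, Sbsn, Dmkn, Cdsn, Casp14, Cst6). All 34 symbols matched an identifier, and 20 of the genes lie on chromosome 3, in the epidermal differentiation complex.

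The cornified envelope is a crosslinked protein shell that replaces the plasma membrane of a squamous cell as it finishes differentiation. Plakins lay it down first beneath the membrane, transglutaminases then join involucrin, loricrin, small proline-rich and late envelope proteins to it, and lipids are bound to its outer face. In the mouse, the esophagus is lined by a keratinizing squamous epithelium, so its outermost cells carry such envelopes.

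RNA was sequenced after 14 days from wild-type mice given the household detergent sodium dodecyl sulfate (SDS) at 0.5% in their water (3 libraries), and from wild-type mice on untreated water (5 libraries, called controls). Age, sex and strain background are not given in the labels, nor do they tie libraries to individual animals; the spread behind each p-value is that among the sequenced libraries and may be technical. The RNA came from the whole organ, with its muscle and connective tissue, so that fewer epithelial cells and less RNA per cell cannot be told apart.

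Counts assigned to genes ranged from 22033866 to 29802362 per library, and 17179 genes passed the filter on low counts. The esophageal keratins Krt4 and Krt13 were abundant in every library, at 36360 to 70590 and 42000 to 71970 CPM (counts scaled by library size) in SDS libraries, and 18750 to 65920 and 19390 to 62960 CPM in controls. SDS library 3 stood apart from the other SDS libraries: a list of 9 neutrophil markers summed to 6229, 5912 and 214 CPM in SDS libraries 1, 2 and 3, against 50.8 to 63.0 CPM in controls. Control library 4 stood apart from the other controls, with the lowest sum of 18 epithelial markers (43730 CPM, against 77180 to 142200 CPM in the other controls) and the highest sum of 8 adipocyte markers (5450 CPM, against 39.5 to 1255 CPM). Summed skeletal muscle markers did not overlap between groups, at 17740 to 32510 CPM in SDS libraries and 39910 to 53140 CPM in controls. Their part in the results below was not tested beyond a fit that holds the muscle level as a covariate.

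The envelope genes spanned a wide range of levels, from Lor at the top to genes with few reads. Their order is given in CPM per kilobase of exon, since levels of different genes can only be compared per length. Lor, which encodes loricrin, the glycine-rich main protein of the epidermal envelope, was the highest at 5851 ± 829 CPM per kilobase in SDS libraries and 9424 ± 2506 CPM per kilobase in controls (SD, n = 3 and 5). Krtdap, a small secreted protein of differentiating keratinocytes, came next in controls at 4606 ± 1318 CPM per kilobase in SDS libraries and 3751 ± 511 CPM per kilobase in controls. Crct1, Sprr3, Dmkn, Cnfn and Rptn followed, with control means between 1290 and 2148 CPM per kilobase, and the order of these neighbours was not tested. At the other end, Ivl, the gene of involucrin, stood at 0.937 ± 0.626 CPM per kilobase in SDS libraries and 1.95 ± 1.27 CPM per kilobase in controls, and Tchh at 3.87 ± 2.23 CPM per kilobase in SDS libraries and 0.921 ± 0.283 in controls.

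**Figure D1:**
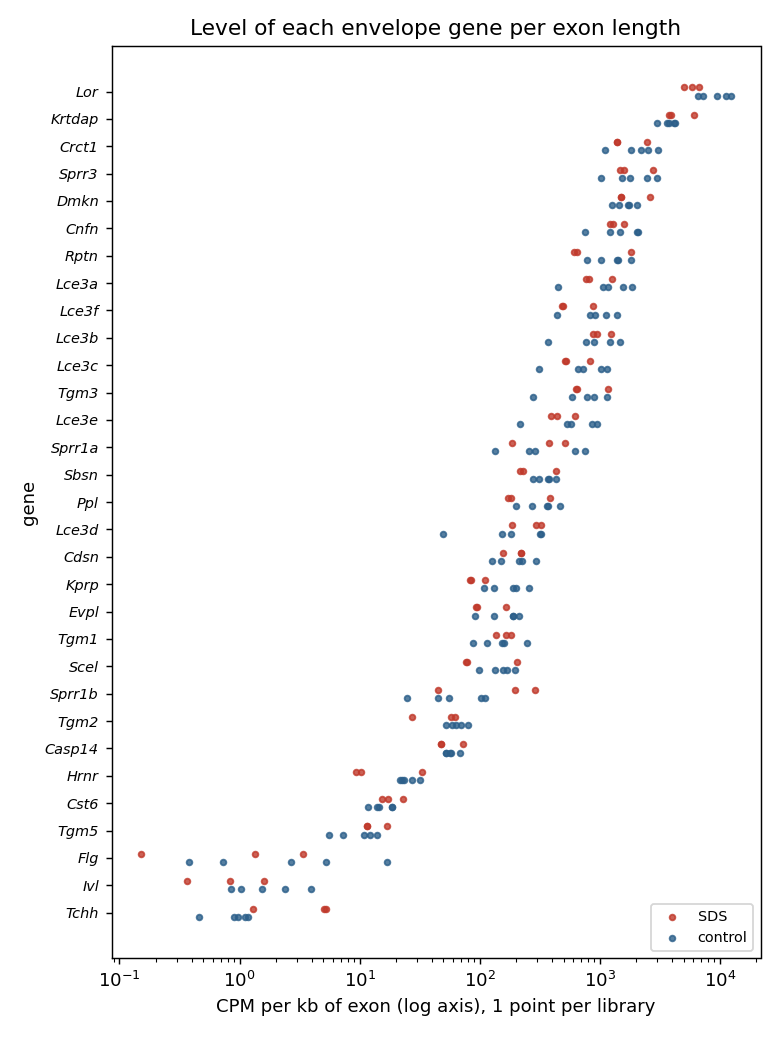
Level of the 31 tested envelope genes in CPM per kilobase of exon on a log axis, with 1 point per library (3 SDS, 5 control) and genes ordered by their control mean. Lor lies highest, with control libraries averaging 9424 CPM per kilobase, and Tchh lowest at 0.921.

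The remaining 3 genes were too low to be tested. Crnn, the gene of cornulin, an S100-fused protein abundant in human esophagus, measured 0.825, 0.0703 and 0 CPM in SDS libraries 1, 2 and 3, and 0, 0.193, 0.111, 0.473 and 0 CPM in the controls. Its highest value came from 21 reads, and a count of 0 allows up to 3 counts, or 0.101 to 0.136 CPM in libraries of these depths, so no difference was detectable. Flg2, a filaggrin relative, stayed between 0 and 0.275 CPM in SDS libraries and between 0.0369 and 2.40 CPM in controls, and Sprr4 had at most 4 counts in an SDS library and 3 in a control.

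None of the 31 tested envelope genes passed the test between SDS and control libraries, with an adjusted p threshold of 0.05, where 1.05% of all tested genes did (edgeR quasi-likelihood test, Benjamini-Hochberg adjustment over 17179 genes). At an unadjusted p under 0.05 there were 4, Tchh and Sprr1b higher and Lor and Kprp lower, which is 12.9% of the 31, against 18.5% of all genes. DESeq2 called 2 (Tchh higher and Kprp lower, against 8.41% of all genes), limma-voom 0 (0.786%) and limma-voom with sample quality weights 11 (11.3%). Of these 11, 9 were lower (Lor, Hrnr, Rptn, Kprp, Sbsn, Lce3f, Evpl, Ppl and Scel) and 2 higher (Tchh and Sprr1b). The log2 fold change of SDS over control was below 0 in 21 of the 31 genes, against 50.7% of all genes, and its median was -0.27, against -0.005 over all genes. That median was -0.10 without SDS library 2, -0.12 without SDS library 1, -0.13 without control library 3 and -0.64 with a skeletal muscle covariate. It was smaller than 0.5 in either direction for 23 genes and at least 1 for 4. The genes of the neighbouring Sprr2 cluster, read from the same fit, had log2 fold changes from 1.12 to 7.90 over the 10 tested. All 10 were above 0 and 8 of them passed, where 0.623% of all tested genes were called higher. The difference between these gene groups was not tested.

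**Figure D2:**
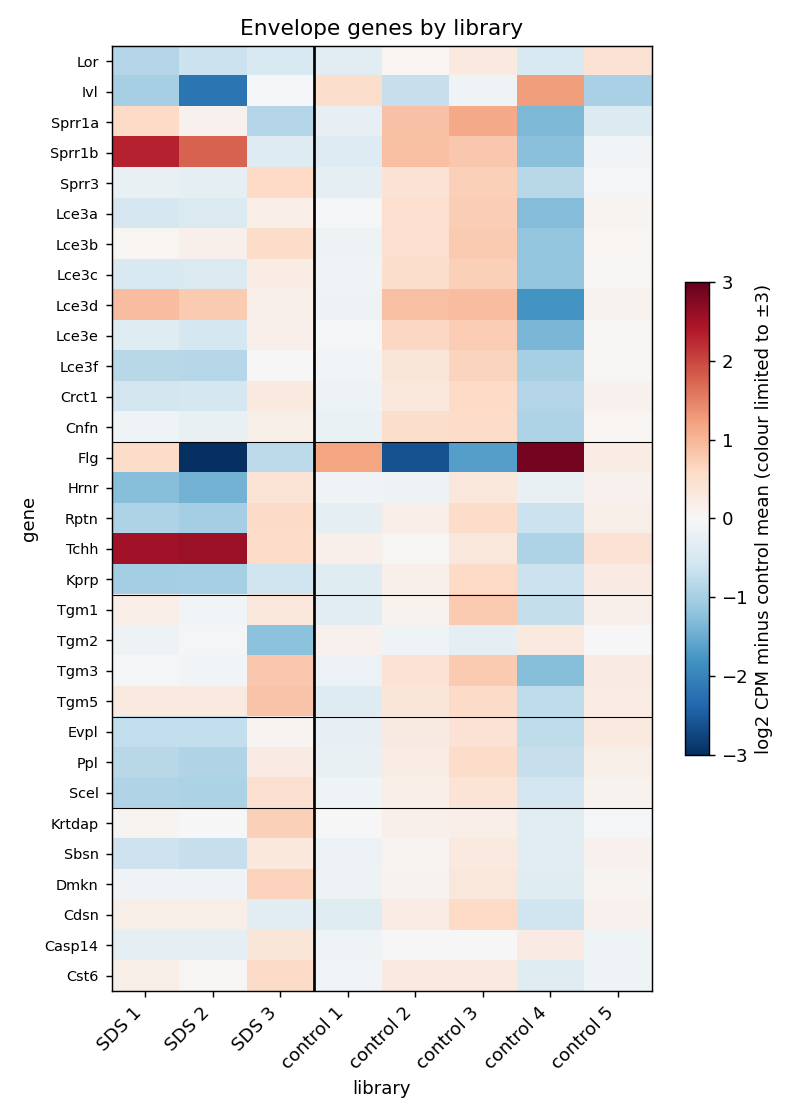
Log2 CPM of the 31 tested envelope genes in each library minus the mean of the 5 control libraries, with colour limited to 3 in either direction, SDS libraries left of the line and controls right of it, and horizontal lines between the 5 roles. SDS libraries 1 and 2 look alike, SDS library 3 is redder than they are in 24 of 31 genes, and control library 4 is the lowest control in 27.

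The libraries differed widely within each group. SDS libraries 1 and 2 lay within 1.2 times of each other in 26 of 31 genes. Both were below the control median in 20 genes (37.9% of all genes) and below the lowest control in 9 (13.0%), while SDS library 3 was the highest of the 3 in 24 (39.1%) and above every control in 11. Control library 4 was the lowest control in 27 genes (29.9%). The highest control exceeded the lowest by 1.31 to 44.5 times, with a median of 2.59, and by more than 2 times in 22 genes. No share over all genes is given for the counts of 26, 11 and 22. Those counts therefore cannot be read as particular to the envelope genes. All 34 genes together took 3.26%, 3.44% and 4.88% of the counts in SDS libraries 1, 2 and 3, and 3.91%, 4.87%, 5.60%, 3.25% and 5.33% in the controls.

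Among the scaffold precursors, Lor was the most abundant and lay low in every SDS library, while the small proline-rich genes went separate ways. Their upstream windows are shown because these genes lie in one complex but had unlike values, and Tchh is added as the gene with the largest fold change. Each run is the 150 bases before the RefSeq transcription start on GRCm38.p6, the assembly behind mm10, 5′ to 3′ on the gene's strand, and capitals mark the AP-1 letters TGANTCA or the TATA letters TATAAA.
Lor, chr3:92083143-92083292, minus strand: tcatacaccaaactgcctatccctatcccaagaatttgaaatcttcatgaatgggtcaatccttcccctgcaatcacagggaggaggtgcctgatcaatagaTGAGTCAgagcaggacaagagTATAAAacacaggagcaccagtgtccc
Sprr1a, chr3:92485882-92486031, minus strand: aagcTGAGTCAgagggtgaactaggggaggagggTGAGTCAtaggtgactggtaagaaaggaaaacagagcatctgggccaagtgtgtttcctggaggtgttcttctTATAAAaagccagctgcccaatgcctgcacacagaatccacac
Sprr1b, chr3:92438780-92438929, minus strand: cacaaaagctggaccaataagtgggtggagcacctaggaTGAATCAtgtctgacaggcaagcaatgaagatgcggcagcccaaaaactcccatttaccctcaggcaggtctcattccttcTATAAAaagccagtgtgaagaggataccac
Sprr3, chr3:92458721-92458870, minus strand: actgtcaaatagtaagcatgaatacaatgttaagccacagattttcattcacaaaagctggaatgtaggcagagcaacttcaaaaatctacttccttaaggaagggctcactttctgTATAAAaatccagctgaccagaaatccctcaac
Tchh, chr3:93442180-93442329, plus strand: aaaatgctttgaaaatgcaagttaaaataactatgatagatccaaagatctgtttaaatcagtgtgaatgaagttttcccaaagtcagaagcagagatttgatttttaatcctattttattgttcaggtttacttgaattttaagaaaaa

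Sprr1a holds the AP-1 letters at both -146 and -116, Sprr1b at -111 and Lor at -48, counted from the start site, while the Sprr3 window holds the TATA letters alone and the Tchh window neither. Windows of 250 bases were found for 28 of the 34 genes (not for Kprp, Crct1, Tgm2, Evpl, Ppl and Cst6). In 12 of these genes a window held TGANTCA on either strand, against 6.75% of 32851 windows of all genes. A gene was counted when any of its windows held the letters, so the count of genes and the percent of windows are unlike measures. The letters TATAAA were met in 12 of the 28 genes, against 12.4% of all windows, and did not overlap the AP-1 letters in the windows shown. The other 4 searches gave 8 genes with TTNNGCAA (C/EBP, 9.56% of all windows), 5 with AACCNGNT (GRHL, 7.61%), 4 with CCNCACCC (KLF, 14.9%) and 3 with CAGGAAG (ETS, 10.8%). Letters in a window are a description of the sequence and do not show that a factor binds there.

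Lor (ENSMUSG00000043165) lies on chromosome 3 from 92080271 to 92083142 on mm10, and its reads were counted over 1779 bases of exon. It measured 8918, 10440 and 11870 CPM in SDS libraries 1, 2 and 3, and 12830, 17010, 20090, 11810 and 22080 CPM in the controls. The first 2 SDS libraries lay below every control, and SDS library 3 lay just above control library 4, so the groups overlapped by that pair. The difference, -0.69 ± 0.27 (log2 fold change and SE), did not pass edgeR's quasi-likelihood test (adjusted p = 0.214).

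Sprr1b, a small proline-rich crossbridge protein, measured 240, 165 and 37.2 CPM in SDS libraries 1, 2 and 3, and 37.2, 91.2, 84.8, 20.6 and 46.4 CPM in the controls. SDS libraries 1 and 2 stood above every control, while SDS library 3 lay among the lower controls. The log2 fold change of 1.40 ± 0.61 did not pass (edgeR adjusted p = 0.265), nor did the value of 1.86 without SDS library 3 (adjusted p = 0.0672).

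Sprr1a, its neighbour, measured 417, 302 and 150 CPM in SDS libraries and 234, 506, 610, 108 and 209 CPM in controls. The SDS values lay inside the control range, with a log2 fold change of -0.20 ± 0.56. Sprr3, which is found in the esophagus of mouse and human, measured 1934, 1819 and 3426 CPM in SDS libraries and 1862, 3044, 3677, 1262 and 2175 CPM in controls. Here too the SDS values lay inside the control range, and the log2 fold change was -0.01 ± 0.37. Sprr1a and Sprr1b were thus highest in SDS library 1 and lowest in SDS library 3 of the SDS group, and Sprr3 was highest in SDS library 3.

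Ivl, the early scaffold protein involucrin, measured 1.61, 0.703 and 3.09 CPM in SDS libraries and 4.61, 1.97, 2.95, 7.60 and 1.64 CPM in controls. These values rest on 20 to 74 counts per SDS library and 41 to 225 per control, and the groups overlapped (log2 fold change -1.07 ± 0.62, edgeR adjusted p = 0.407). Cnfn, which encodes the envelope protein cornifelin, measured 937, 880 and 1156 CPM in SDS libraries and 885, 1467, 1488, 543 and 1070 CPM in controls, so its SDS values fell within the control range. Crct1 gave a log2 fold change of -0.29 ± 0.34.

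The 6 Lce3 genes, late envelope genes that lie side by side on chromosome 3, had log2 fold changes from -0.61 (Lce3f) to 0.39 (Lce3d), with a median of -0.34. Lce3f measured 301, 299 and 538 CPM in SDS libraries and 510, 695, 857, 269 and 554 CPM in controls. Control library 4 was the lowest control for all 6, and it was the lowest of all 8 libraries for each of them. The division of reads among these genes is uncertain, since 12.1% to 49.3% of the 50-base stretches of each transcript occur in another Lce3 gene.

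Among the S100-fused and related proteins, Tchh and Kprp had the lowest p-values, in opposite directions. Tchh encodes trichohyalin, a crosslinked protein of the hair follicle's inner root sheath and of tongue papillae, and lies on chromosome 3 from 93442330 to 93449077 (ENSMUSG00000052415). It measured 29.5, 30.5 and 7.51 CPM in SDS libraries 1, 2 and 3, and 5.63, 5.20, 6.43, 2.67 and 6.90 CPM in the controls. SDS libraries 1 and 2 stood far above the controls, and SDS library 3 stood just above the highest control. Tchh was the only 1 of the 31 genes whose groups did not overlap, against 13.4% of all genes. The log2 fold change of 2.07 ± 0.45 missed the threshold in edgeR (adjusted p = 0.0647). Tchh passed without SDS library 3 (log2 2.49, adjusted p = 0.00432), and the adjusted p ranged from 0.00432 to 0.238 when each library was left out in turn.

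Kprp (ENSMUSG00000059832), the keratinocyte proline-rich protein gene, lies on chromosome 3 from 92823074 to 92827247. It measured 228, 232 and 305 CPM in SDS libraries, and 362, 518, 700, 296 and 546 CPM in the controls. SDS libraries 1 and 2 lay below every control, and SDS library 3 lay between control library 4 and the other controls. Its log2 fold change of -0.93 ± 0.28 did not pass in edgeR (adjusted p = 0.137), and DESeq2 gave an adjusted p of 0.0245.

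Hrnr, hornerin, measured 115, 105 and 374 CPM in SDS libraries 1, 2 and 3, and 261, 253, 355, 242 and 305 CPM in the controls. SDS libraries 1 and 2 had less than any control and SDS library 3 more than any control. Over all libraries the log2 fold change was -0.52 ± 0.41 (edgeR adjusted p = 0.550); without SDS library 3 it was -1.36, with an adjusted p of 0.00700, so that Hrnr and Tchh were the 2 envelope genes called in that fit, against 6.92% of all genes. Rptn, repetin, was likewise highest in SDS library 3, at 2696, 2551 and 7614 CPM in SDS libraries and 4258, 5858, 7549, 3280 and 5796 CPM in controls. SDS library 3 exceeded every control in both genes, and the Rptn log2 fold change was -0.32 ± 0.42.

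Flg encodes profilaggrin, the precursor of the keratin-aggregating protein filaggrin. It measured 64.1, 2.85 and 25.3 CPM in SDS libraries, and 98.1, 7.13, 13.7, 317 and 50.8 CPM in controls. The 44.5-fold spread between controls was the widest of the 31 genes, and the log2 fold change of -1.66 ± 1.31 did not pass. It was -0.47 without control library 4 and -2.79 without SDS library 1. Control libraries 4 and 1, which had the most Flg, also had the most of the adipocyte markers and of the epidermal keratin Krt1 among controls, and the part of either in the Flg values was not tested.

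**Figure D3:**
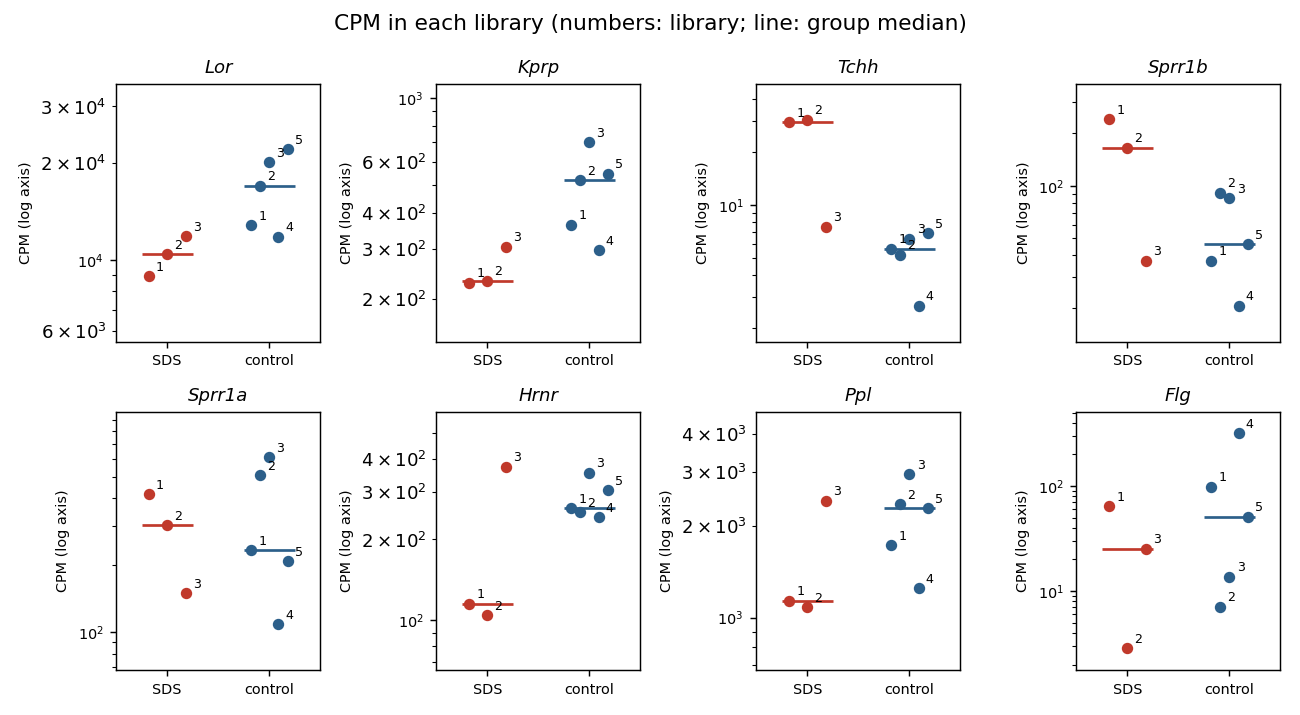
CPM of 8 envelope genes in each library on log axes, SDS libraries at the left of each panel and controls at the right, with library numbers beside the points and a line at each group's median. For Lor, Kprp, Hrnr and Ppl, SDS libraries 1 and 2 lie below every control, for Tchh and Sprr1b above every control, and SDS library 3 lies apart from both in Tchh, Sprr1b, Hrnr and Ppl.

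The 4 transglutaminases did not pass in the edgeR fit with group alone. Tgm1, the membrane-bound enzyme that joins envelope proteins, measured 500, 410 and 548 CPM in SDS libraries and 349, 466, 742, 265 and 480 CPM in controls. Tgm3, a cytosolic enzyme of the same pathway, measured 2669, 2609 and 4809 CPM in SDS libraries and 2440, 3741, 4736, 1147 and 3254 CPM in controls. Their log2 fold changes were 0.08 ± 0.30 and 0.13 ± 0.42, both of which turned below 0 with the covariates described below. Tgm2, the widely expressed tissue transglutaminase, measured 266, 290 and 127 CPM in SDS libraries and 324, 273, 243, 366 and 293 CPM in controls. SDS library 3 had the least of all libraries, and the log2 fold change was -0.40 ± 0.27 (edgeR adjusted p = 0.474). Tgm5 gave 0.42 ± 0.30.

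All 3 genes of the plakin group had log2 fold changes below 0 and a like order of libraries. Evpl, envoplakin, measured 602, 594 and 1061 CPM in SDS libraries and 845, 1209, 1356, 585 and 1214 CPM in controls. Ppl, periplakin, with which envoplakin pairs to start the envelope, measured 1135, 1079 and 2416 CPM in SDS libraries and 1727, 2348, 2945, 1249 and 2284 CPM in controls. Scel, the envelope precursor sciellin, measured 238, 233 and 626 CPM in SDS libraries and 407, 512, 596, 300 and 479 CPM in controls. In all 3 genes SDS libraries 1 and 2 lay near or below the lowest control, and SDS library 3 lay inside the control range or, for Scel, above it. Log2 fold changes were -0.47 ± 0.32, -0.45 ± 0.36 and -0.33 ± 0.37, and none passed in the edgeR fit with group alone. All 3 were called lower by limma-voom with sample quality weights.

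None of the 6 secreted and desquamation-linked genes passed in the edgeR fit with group alone, where their log2 fold changes lay between -0.27 and 0.30. Krtdap measured 2680, 2544 and 4157 CPM in SDS libraries and 2542, 2829, 2888, 2021 and 2454 CPM in controls, so that SDS library 3 exceeded every control while the other 2 lay among them. Its chromosome 7 neighbours, the secreted proteins Dmkn (dermokine) and Sbsn (suprabasin), gave 0.20 ± 0.25 and -0.27 ± 0.26. Cdsn, corneodesmosin, an adhesion protein of cornified cells, gave -0.03 ± 0.28. Casp14, the caspase of cornifying keratinocytes, gave -0.04 ± 0.17, and Cst6, an inhibitor of the cathepsins that act on transglutaminases, gave 0.26 ± 0.19.

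Because the RNA level of epithelial genes differed between libraries, the envelope genes were also read against it. The reference was the mean log2 CPM of 18 epithelial genes, none of them an envelope gene, each relative to its control mean. It stood at 0.05, 0.04 and 0.52 in SDS libraries 1, 2 and 3, and at -0.25, 0.30, 0.51, -0.75 and 0.20 in the controls. The groups overlapped, and SDS library 3 and control library 4 lay at opposite ends. The 18 genes were Cdh1, Epcam, Dsp, Jup, Pkp1, Pkp3, Perp, Trp63, Krt5, Krt4, Krt13, Esrp1, Esrp2, Rab25, Prss8, St14, Marveld2 and Cldn4. In the edgeR fit with group alone 0 of the 18 passed, which does not show that SDS left them unchanged. A level relative to this reference may therefore also reflect a change in the reference genes, and this was not tested.

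Relative to this reference, 7 of the 31 envelope genes were lower in every SDS library than in every control, against 4.55% of all genes: Lor, Kprp, Cnfn, Crct1, Lce3f, Evpl and Ppl. Kprp stood at -1.06, -1.04 and -1.13 in SDS libraries and between -0.14 and 0.11 in controls, on the log2 scale. Lor stood at -0.91, -0.68 and -0.98 in SDS libraries and between -0.23 and 0.28 in controls. SDS library 3, which in CPM lay just above control library 4 for both genes, here lay below every control with the other SDS libraries. In the opposite direction, Tgm5 was higher in every SDS library than in every control (0.25, 0.25 and 0.33, against -0.13 to 0.07), the only 1 of the 31, against 1.08% of all genes.

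**Figure D4:**
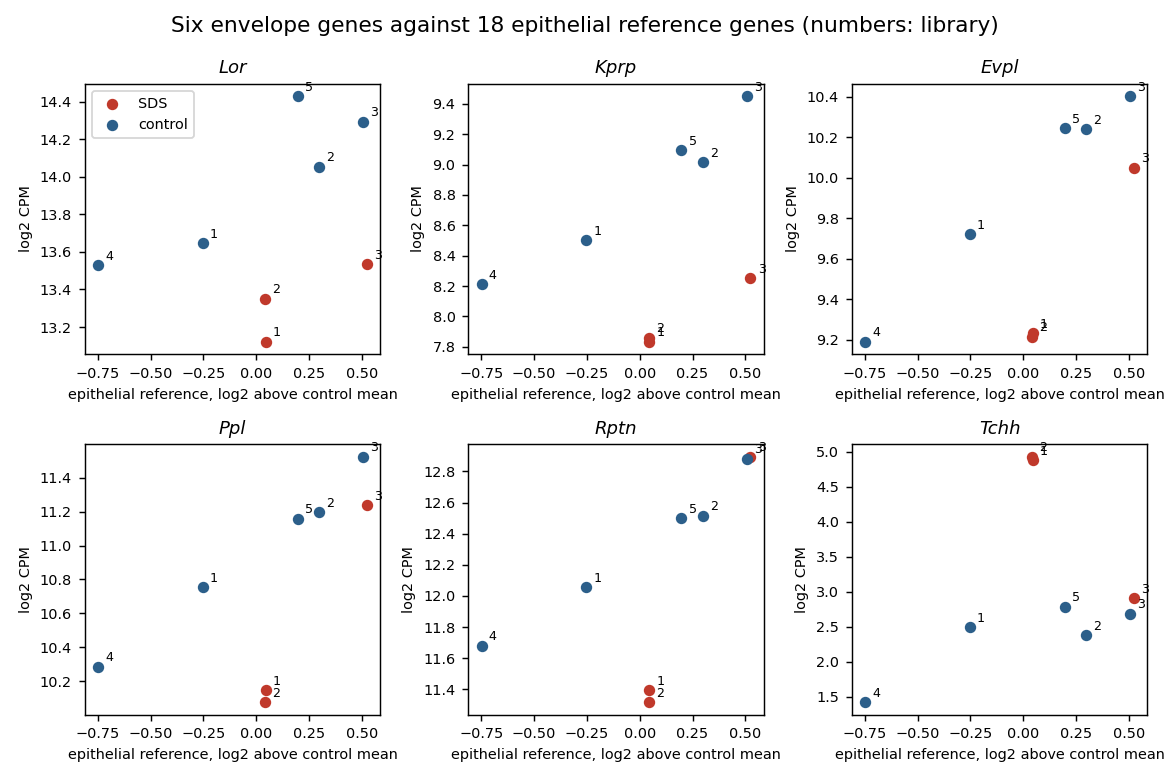
Log2 CPM of 6 envelope genes against the epithelial reference of 18 genes (log2 above the control mean), 1 point per library with its number, for 3 SDS and 5 control libraries. In the panels of Lor, Kprp, Evpl and Ppl the SDS points lie below the controls at a like epithelial level, in that of Rptn SDS library 3 lies on control library 3, and in that of Tchh SDS libraries 1 and 2 lie far above.

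With the epithelial reference as a covariate in the edgeR quasi-likelihood fit, 9 of the 31 genes passed after Benjamini-Hochberg adjustment. Lower were 8 genes, 25.8% against 4.41% of all genes: Kprp (log2 -1.07 ± 0.09, adjusted p = 0.00296), Lce3f (-0.83 ± 0.13, 0.0120), Evpl (-0.68 ± 0.11, 0.0142), Lor (-0.80 ± 0.14, 0.0194), Crct1 (-0.51), Ppl (-0.70), Lce3a (-0.57) and Lce3c (-0.52). Higher was Tchh alone (2.06 ± 0.46, adjusted p = 0.0335), where 4.94% of all genes were called higher. The covariate took the SE of Kprp from 0.28 to 0.09 and that of Evpl from 0.32 to 0.11, while that of Tchh was 0.45 without it. The share over all genes also covers genes that do not follow the epithelial reference, so it is only a rough background. The genes called lower in this fit thus included Lor, both envelope plakins and 3 of the 6 Lce3 genes, whose reads cannot be fully separated. None of the 4 transglutaminases or the 6 secreted and desquamation-linked genes passed. Tgm5 missed the threshold narrowly (0.25 ± 0.07, edgeR adjusted p = 0.0634). The difference between these roles was not tested. Tgm5 was called higher with the covariate without its keratins, and both Tgm5 (higher) and Sbsn (lower) were called without SDS library 3.

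These calls depended on which libraries entered the fit, to a degree that differed between genes. Kprp passed with each of the 8 libraries left out in turn (log2 -1.11 to -1.01, adjusted p at most 0.0181). Evpl and Lce3f each passed in 7 of 8, Evpl being lost without SDS library 2 (adjusted p = 0.0561) and Lce3f without control library 3 (0.0511). Lor passed in 5 of 8, and was lost without SDS library 1, control library 2 or control library 3 (highest adjusted p = 0.0629). Lce3c passed in 3 of 8 and Ppl and Lce3a each in 2 of 8. Crct1 and Tchh passed only without SDS library 3. The count of envelope genes called lower was 13 without SDS library 3 (8.86% of all genes), and between 2 and 8 without any 1 of the others (0.743% to 3.84%). Called higher were 4 without SDS library 3, a share of the 31 close to the 12% of all genes, and 0 in each of the other 7 fits (0.977% to 3.27%). With a skeletal muscle covariate, whose level moved with the groups, no envelope gene passed and 0.0233% of all genes did.

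**Figure D5:**
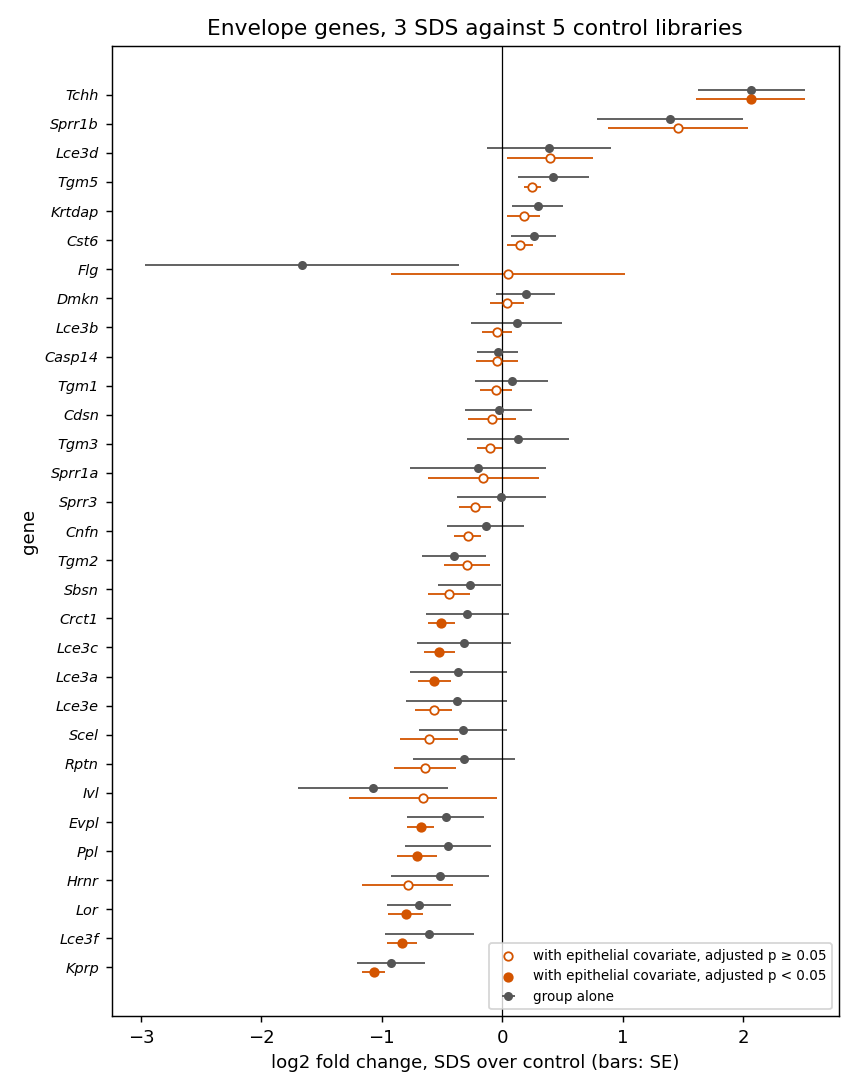
Log2 fold change of SDS over control for the 31 tested envelope genes, with bars of 1 SE, from the fit with group alone (grey) and with the epithelial covariate (orange; filled where the adjusted p is under 0.05). The 9 filled points are Tchh at the top (2.06) and 8 genes below 0, from Crct1 (-0.51) to Kprp (-1.07).

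Genes that work with the envelope were read from 4 further lists, of which 84 genes were tested, and 1 of the 84 passed in edgeR's quasi-likelihood test with Benjamini-Hochberg adjustment. That gene was Il13ra1, a receptor chain for interleukin-13, in the list of 31 regulators of terminal differentiation. It measured 57.5, 81.3 and 50.1 CPM in SDS libraries and 26.8, 31.8, 31.5, 20.6 and 30.3 CPM in controls, with every SDS library above every control (log2 fold change 1.16 ± 0.19, adjusted p = 0.0368). Of the 19 tested further cornified family genes, which include 14 Lce1 genes, 0 passed, with 1 at an unadjusted p under 0.05. That list held 24 genes, and those that missed the filter on low counts were not tested. Among these, Tgm6 measured 4.01, 2.04 and 0 CPM in SDS libraries 1, 2 and 3 and 0 CPM in every control. Lelp1 measured 0 to 0.316 CPM in SDS libraries and 0.0963 to 0.307 CPM in controls. Of the 19 tested processing enzymes and inhibitors 0 passed, with 4 at an unadjusted p under 0.05, and of the 15 lipid envelope genes 0 passed, with 0 at that level. Among the 31 regulators 8 were at that level, as were 18.5% of all genes. By DESeq2 9 of the 84 passed (8.41% of all genes), beside the 1 in edgeR (1.05% of all genes).

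With the epithelial covariate 20 of the 84 genes passed, 11 higher and 9 lower, again beside 9.35% of all genes. The genes named next were chosen after their values were seen. Lower were 4 of the 15 lipid envelope genes, among them the lipoxygenases Aloxe3 (log2 -0.76, edgeR adjusted p = 0.00725) and Alox12b (-0.58, 0.0212), which oxidize the ceramides that are bound to the envelope. In the same list Degs2, a ceramide-synthesis desaturase, was higher (0.77, adjusted p = 0.0132). Elf5, an epithelial ETS-family factor, was also lower (-1.38, adjusted p = 0.0193). Higher were Klk7, a protease that cleaves corneodesmosin (0.64, adjusted p = 0.00749; 0.71 and 0.0514 without the covariate), and Anxa1, annexin A1 (0.92, 0.0260). Klk7 measured 159, 181 and 206 CPM in SDS libraries and 94.4 to 131 CPM in controls, with no overlap, and SDS library 3 was the highest.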

How the data were processed

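Whole esophagus RNA of 8 libraries was used, 3 from mice on 0.5% SDS and 5 from untreated mice, grouped by the titles and treatment in the labels. Per the labels' protocols, poly(A)-selected RNA was made into libraries with an NEBNext Ultra II kit; that text also speaks of cell pellets. Each library has its own table of unnormalized counts per gene, deposited with the authors' gene coordinates and exon lengths. The submitters' processing notes name STAR 2.6.1c, Subread, bcl2fastq and FastQC, and the build mm10. The sources used here give no strand setting, annotation release or handling of multiply matching reads. How reads were divided among paralogs and overlapping genes is therefore uncertain. A same-strand or opposite-strand gene overlaps Rptn, Sbsn, Flg and Tgm2.

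Symbols came from a table that matched 48970 of 49315 identifiers. 4 symbols of the further lists matched none and were not used here. The main test was run with edgeR 4.0.16 under R 4.3.3: filterByExpr (minimum count 10, minimum total 15), TMM scaling, and a robust quasi-likelihood test with group as its term, two-sided. P-values were adjusted by Benjamini-Hochberg over 17179 genes, at a threshold of 0.05. The common BCV (biological coefficient of variation) came to 29.3%. CPM used TMM-scaled library sizes, and log2 CPM a prior count of 2. Each SE is the absolute log2 fold change over the root of F. Limits for a count of 0 are 3 counts and cover counting error only. Alternatives were other scalings and filters, DESeq2 1.42.0, limma-voom (limma 3.58.1) with and without sample quality weights, covariates for epithelial and muscle markers, a replicate block and leaving out each library. The procedure was tested on simulated counts. Leave-one-out fits with the epithelial covariate, and 2 narrower forms of it, were added after seeing the data. Libraries within a group differed beyond sampling noise (chi-square per degree of freedom at least 22.1).

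The members and lists were chosen with earlier results of these data known. Values in every library were given for members called, for those with groups that did not overlap, and for 16 members fixed by name; Kprp, Hrnr and Lce3f were added after their values were seen. Genes of the further lists were named where called, and the untested Tgm6 and Lelp1 after their values were seen. The epidermal, macrophage, fibroblast, endothelial, smooth muscle, basal and suprabasal marker lists were read by their summed levels. The basal and suprabasal lists were also read by their mean log2 CPM. Promoter windows were taken from RefSeq's table for GRCm38.p6, where 6 motifs were searched on both strands.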

Additional observations from a re-analysis of the deposited data

How the results depend on the processing

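The count of envelope genes called was 0 under both other scalings, both other filters, limma-voom, the skeletal muscle covariate and the replicate block, 2 by DESeq2, 9 with the epithelial covariate, 11 by limma-voom with sample quality weights, and 0 to 2 with each library left out; the 2 came without SDS library 3 (Hrnr lower, Tchh higher). All genes called, 180 at first, numbered 1563 by DESeq2, 1949 with quality weights, 1607 with the epithelial covariate, 4 with the muscle covariate, 0 with the replicate block, and 4 to 1222 with each library left out. Of the 4 related lists, 1 gene passed at first, 2 with upper-quartile scaling, 3 with no filter, 9 by DESeq2, 20 with quality weights, 20 with the epithelial covariate, 0 with the muscle covariate, 0 with the replicate block, and 0 to 13 with each library left out. Calls with the epithelial covariate ranged from 2 to 17 with each library left out (1.72% to 20.9% of all genes), and were 8 without its keratins (9.44%) and 6 with desmosome markers alone (4.87%), where Kprp, Lor, Lce3f and Evpl were lower in both. The cause of these changes was not tested. The labels do not state that the numbers in the titles pair the libraries. Deviations of same-numbered libraries correlated at 0.311, -0.006 and 0.307, which cannot decide whether they do.

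Some log2 fold changes that had not passed changed sign, most of them near 0. With the epithelial covariate Flg, at -1.66 without it, gave 0.049, Tgm1 -0.051, Tgm3 -0.10 and Lce3b -0.042. With the muscle covariate Tgm1 gave -0.31, Tgm2 0.13, Tgm3 -0.54, Tgm5 -0.12, Krtdap -0.029, Dmkn -0.38, Lce3b -0.30 and Sprr1a 0.26. With the replicate block Tgm1 gave -0.035, Tgm3 -0.12 and Lce3b -0.13. With quality weights Tgm3 gave -0.17, Dmkn -0.086, Cdsn 0.082, Lce3b -0.033 and Sprr1a 0.27, and by limma-voom Cdsn gave 0.005 and Sprr3 0.025. Sprr3 gave 0.001 with relative log expression factors, 0.012 with upper-quartile scaling and 0.006 with no filter. With each library left out, ranges that crossed 0 were -0.27 to 0.072 for Casp14, -0.15 to 0.14 for Cdsn, -0.11 to 0.33 for Dmkn, -0.069 to 0.34 for Lce3b, -0.56 to 0.13 for Sprr1a, -0.35 to 0.20 for Sprr3, -0.055 to 0.32 for Tgm1 and -0.21 to 0.35 for Tgm3.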

Other observations

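A few envelope genes did not share the order of controls seen in the rest. Flg, Ivl, Tgm2 and Casp14 were highest among controls in control library 4, the library that was lowest for the other 27 tested envelope genes. Krt1, a keratin of the upper epidermis, measured 9.55, 1.62 and 7.67 CPM in SDS libraries and 53.9, 1.40, 1.96, 462 and 7.36 CPM in controls. Its partner Krt10 measured 150, 59.8 and 58.4 CPM in SDS libraries and 43.1, 10.02, 10.7, 192 and 17.2 CPM in controls. Of the hair and other epidermal keratins, Krt71 and Krt25 were at 0 in all 8 libraries, and Krt2, Krt27, Krt28, Krt77 and Krtap3-1 stayed at or below 0.71 CPM, while Krt35 measured 0.629, 0.492 and 2.63 CPM in SDS libraries and 0.608 to 3.21 CPM in controls. The inner root sheath keratins among these (Krt71, Krt25, Krt27 and Krt28) were thus at or near 0 in all 8 libraries, those with little Tchh included. The source of the Tchh reads was not tested.

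Summed macrophage and dendritic cell markers were 875, 1705 and 467 CPM in SDS libraries 1, 2 and 3, and 344 to 552 CPM in controls. For these markers SDS library 3 lay within the control range. Fibroblast markers summed to 2476, 6248 and 999 CPM in SDS libraries and 2029 to 2657 CPM in controls. Basal keratinocyte markers summed to 10680, 9239 and 8235 CPM in SDS libraries and 3455 to 7372 CPM in controls, and these sums did not overlap. Suprabasal markers summed to 84680, 88850 and 146300 CPM in SDS libraries and 40260 to 133700 CPM in controls. Such sums are weighted to the most abundant genes. Averaged as log2 CPM relative to the control mean, the basal list overlapped (0.25, 0.15 and 0.38 in SDS libraries, -0.59 to 0.35 in controls). The suprabasal list so averaged gave 0.72, 0.47 and 0.11 in SDS libraries 1, 2 and 3, and -0.70 to 0.41 in controls. By this average SDS library 3 was the lowest of the SDS libraries, while by the sum it was the highest. Smooth muscle markers summed to 1851 to 3988 CPM in SDS libraries and 2896 to 7675 CPM in controls, and endothelial markers to 123 to 231 CPM in SDS libraries and 152 to 292 CPM in controls. The part of these cell types in the envelope values was not tested.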
